A study of Danio rerio with 6 samples.

Results

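The genes described here are 10 components of bone morphogenetic protein (BMP) signalling in zebrafish, namely the type I receptor genes acvrl1, bmpr1aa and bmpr1ab, the type II receptor genes bmpr2a and bmpr2b, the signal-carrying Smad genes smad1, smad5 and smad9, the inhibitory Smad gene smad6b, and the target gene id1. They were taken by gene name from a table of 21837 named rows, in which each of the 10 names had 1 row. Expression was measured by RNA sequencing at 28 hours post fertilization (hpf) in GFP+ cells from Tg(fli1a:eGFP) embryos. In this line green fluorescent protein is driven by regulatory sequence of fli1a, a gene of endothelium that is also known from pharyngeal arches and some blood cells. The embryos of 3 libraries carried a clec16a morpholino (MO), an antisense oligomer against clec16a, and those of the other 3 carried a control MO. All 6 libraries share the transgene, the stage and the label of no culture. The library titles, which begin with NegaP for clec16a MO and Exp2D for control MO, do not name the morpholino, so the groups rest on the genotype and description labels. The labels give no gate for the GFP+ cells, do not say whether the clec16a MO blocks splicing or translation, and do not tie replicates to separate clutches; the spread behind every p-value may thus be technical. Where 3 values are given for a group, they are its replicates 1, 2 and 3 in that order. The study asks how clec16a, which encodes an endolysosomal protein, acts in hematopoietic stem and progenitor cells.

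BMP ligands are secreted dimers that bring type I and type II receptors together at the cell surface. Both receptor types are serine/threonine kinases. The type II receptor phosphorylates the type I receptor, which phosphorylates Smad1, Smad5 or Smad9, and these enter the nucleus with Smad4 and act on target genes. Id genes are among the best known targets, and inhibitory Smads damp the pathway. In the zebrafish embryo BMP signalling patterns ventral tissue and takes part in vessel growth and in the formation of blood stem cells in the dorsal aorta.

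Values are deposited FPKM (fragment numbers scaled by transcript length and library total), so levels can be compared between genes, but the depth behind them is unknown. Summed FPKM was 498232 to 546225 in clec16a MO cells and 488667 to 504062 in control MO cells, while 15153 to 15871 and 19250 to 19317 rows were above 0. The targeted gene clec16a read 5.68, 5.57 and 4.24 FPKM in clec16a MO cells and 14.4, 14.1 and 14.3 FPKM in control MO cells (log2 difference -1.32, limma adjusted p = 5.5e-05). A log2 difference below that of clec16a was found in 33.5% of tested genes. The mRNA of a target can also stay level under a translation-blocking morpholino. The labels are thus not checked by the clec16a values alone. Of the markers of the labelled cells, fli1a itself was at 109, 96.8 and 114 FPKM in clec16a MO cells, against 1096, 1083 and 967 FPKM in control MO cells, and the endothelial transcription factor gene erg was listed at 0 in all 3 clec16a MO libraries. The 0 of erg may also mean that its estimation failed. The fli1a values thus go in part against the label of the clec16a MO libraries as sorted fli1a:eGFP cells. A difference in the cells collected cannot be told apart from the morpholino in any result below. The summed level of 12 endothelial markers was 1136 to 1437 FPKM in clec16a MO cells and 3636 to 3705 FPKM in control MO cells, with 0 markers called higher and 11 called lower. Over all tested genes 54.6% were called lower and 26.7% higher. The filter for testing was a mean of at least 1 FPKM over all libraries. Of the lower markers, erg and tek passed it through control MO cells alone and had to be lower. The marker not called was clec14a, with a mean of 780 FPKM in clec16a MO and 858 FPKM in control MO (log2 difference -0.16). The summed level of 12 erythroid markers was 19790 to 34840 FPKM in clec16a MO cells against 1533 to 1719 FPKM in control MO cells, with 12 higher. Of these, epb41b passed the filter through clec16a MO cells alone and had to be higher. Myeloid markers summed to 2950 to 4274 FPKM in clec16a MO cells against 58.95 to 62.43 FPKM in control MO cells, with 12 of 13 tested rows higher. Of the higher rows, those of spi1b, mpx, mpeg1.1 and mfap4 passed the filter through clec16a MO cells alone and had to be higher. Of the 17 myeloid rows 8 share the name mfap4, and without these the sums were 857 to 1279 FPKM and 58.9 to 62.4 FPKM in the same order. In all 3 control MO libraries 10 rows were listed at 0, namely 7 of mfap4, mpx, mpeg1.1 and marco, and marco was also at or near 0 in clec16a MO cells. Skeletal muscle markers summed to 18.5 to 29.4 FPKM in clec16a MO cells and 2736 to 2769 FPKM in control MO cells, and epidermal markers to 97.2 to 104.9 FPKM and 1200 to 1226 FPKM in the same order. The summed endothelial, muscle and epidermal markers were thus lower in clec16a MO cells, and the erythroid and myeloid ones higher. In control MO cells the muscle gene actc1b averaged 1628 FPKM, beside 1049 FPKM for fli1a. Neither group is thus shown to be endothelium alone. The part of these marker levels in the results below was not tested.

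Of the 10 BMP genes, 9 were lower in clec16a MO cells, 0 were higher, and bmpr1aa did not pass the threshold. All 10 averaged at least 1 FPKM over all libraries, which was the filter for testing. bmpr2a and bmpr2b averaged below 1 FPKM in clec16a MO cells and passed it through control MO cells alone, so they had to be lower, and they are in the counts only as a description. Of the other 8 genes 7 were lower, 1 of them (smad6b) by a log2 difference of at least 2. The test was limma on log2(FPKM + 1), with an adjusted p below 0.05 after Benjamini-Hochberg adjustment over 12153 tested genes. The median log2 difference of the 10 genes, clec16a MO minus control MO, was -1.49, beside -0.66 over all tested genes. Calls were common in this comparison: 81.3% of tested genes were called, 54.6% lower and 26.7% higher. A log2 difference of -1 or less was called for 7 of the 10 genes and for 41.3% of tested genes, and one of -2 or less for 3 of the 10 and 18.0% of tested genes. The groups did not overlap for 9 of the 10 genes, again all but bmpr1aa, and for 83.7% of tested genes (56.1% with clec16a MO below). In whole sorted populations such as these, fewer cells that express a gene and less RNA per cell cannot be told apart.

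**Figure D1:**
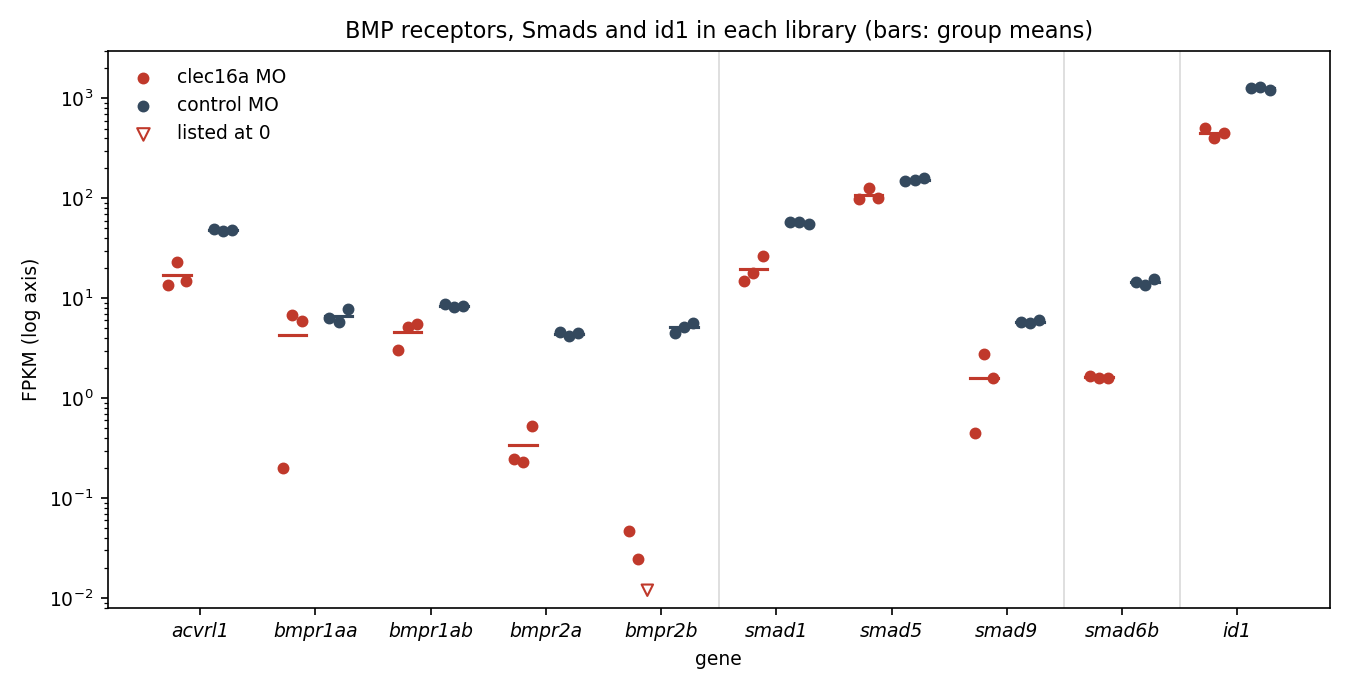
FPKM (log axis) of the 10 BMP genes in each library, with clec16a MO left of control MO for each gene; points are single libraries, bars are group means, and the open triangle is a library listed at 0. The libraries of the groups are apart for every gene but bmpr1aa, and bmpr2b is below 0.05 FPKM in each clec16a MO library.

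Among the type I receptors, acvrl1 was the most abundant in both groups and fell. acvrl1 encodes Alk1, the type I receptor that is largely restricted to endothelium, and loss of it causes vascular malformations in human and zebrafish. It read 13.7, 23.3 and 14.8 FPKM in clec16a MO cells and 49.8, 46.9 and 48.6 FPKM in control MO cells. Every clec16a MO library lay below every control MO library, and clec16a MO replicate 2 was the highest of its group. The group means were 17.3 ± 5.25 FPKM in clec16a MO and 48.5 ± 1.48 FPKM in control MO (SD, n = 3 each), so that the clec16a MO mean was 35.7% of the control MO mean (log2 difference -1.47, SE 0.19, limma adjusted p = 0.00024). Beside it, the 12 endothelial markers had a median log2 difference of -2.24 and ran from -7.21 for erg to -0.16 for clec14a. Between these lay -2.03 for the VEGF receptor gene kdrl and -1.54 for the orphan receptor gene tie1. Among the 12 markers, erg and tek passed the filter through control MO cells alone and had to be lower. The median and the lower end of the range are thus only a description.

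The paralogs bmpr1aa and bmpr1ab encode the widely expressed type I receptor Alk3, and their values diverged between clec16a MO libraries. bmpr1aa read 0.2, 6.80 and 5.87 FPKM in clec16a MO cells and 6.42, 5.78 and 7.76 FPKM in control MO cells. Replicates 2 and 3 of the clec16a MO group lay within the control MO range, and replicate 1 far below it. The log2 difference of -0.93 did not pass (SE 0.68, limma adjusted p = 0.24), and it was -0.06 without clec16a MO replicate 1 (SE 0.14, limma adjusted p = 0.73). bmpr1ab read 3.07, 5.14 and 5.50 FPKM in clec16a MO cells and 8.76, 8.14 and 8.34 FPKM in control MO cells, with clec16a MO replicate 1 again the lowest. It fell to 54.3% of the control MO mean (log2 difference -0.79, SE 0.19, limma adjusted p = 0.0069), and this call was lost at -0.09 under median centring (limma adjusted p = 0.68) and at -0.13 under quantile normalization (limma adjusted p = 0.51). The within-library ratio of bmpr1aa to bmpr1ab was 0.0652, 1.32 and 1.07 in clec16a MO cells, against 0.733, 0.710 and 0.931 in control MO cells. The difference of this ratio, -0.14 on the log2(FPKM + 1) scale, was within the replicate spread (exact permutation p = 1, two-sided). Without clec16a MO replicate 1 it turned to 0.52. How fragments shared by close paralogs were divided is not stated, so the split within such a pair is uncertain.

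The type II receptor genes were at the bottom of the set by mean level in both groups. bmpr2a read 0.248, 0.232 and 0.531 FPKM in clec16a MO cells and 4.55, 4.23 and 4.54 FPKM in control MO cells. bmpr2b read 0.0473, 0.0244 and 0 FPKM in clec16a MO cells and 4.51, 5.20 and 5.61 FPKM in control MO cells. Both encode the BMP type II receptor, whose human ortholog is the main gene of heritable pulmonary arterial hypertension. They passed the filter through control MO cells alone and had to be lower. Their log2 differences were -2.03 (SE 0.13) for bmpr2a and -2.57 (SE 0.12) for bmpr2b. These sizes depend on the pseudocount, since the clec16a MO values are far below 1 FPKM: with 0.1 in its place they were -3.44 and -5.4. The paralogs were at nearly equal levels in control MO cells, where bmpr2a over bmpr2b was 1.01, 0.814 and 0.811. In clec16a MO replicates 1 and 2 that ratio was 5.26 and 9.51, and in replicate 3 bmpr2b was listed at 0.

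Set against acvrl1, bmpr1aa and bmpr1ab in the same library, bmpr2a and bmpr2b were lower in clec16a MO cells. The ratio leaves out the receptor genes outside the set, of which acvr2aa was higher and acvr2ba and acvr1l lower. It thus does not describe all type II and type I receptors. Since bmpr2a and bmpr2b passed the filter through control MO cells alone and had to be lower, the comparison is given only as a description. Summed bmpr2a and bmpr2b came to 0.0174, 0.00727 and 0.0202 of summed acvrl1, bmpr1aa and bmpr1ab in clec16a MO cells, against 0.139, 0.155 and 0.157 in control MO cells. A plain ratio within a library does not depend on how libraries are scaled against each other. The difference was -1.65 on the log2(FPKM + 1) scale, which, unlike the plain ratio, changes with library scaling. With a pseudocount of 0.1 it was -3.09.

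The 3 receptor-regulated Smads, the direct substrates of the BMP type I receptors, all fell as deposited. smad5 was the most abundant of them, with 99.2, 126 and 102 FPKM in clec16a MO cells and 148, 152 and 161 FPKM in control MO cells. Its groups did not overlap, and its difference was the smallest of the set as deposited (log2 difference -0.50, SE 0.11, limma adjusted p = 0.0041) and turned to 0.19 with median centring (limma adjusted p = 0.18). With quantile normalization the smad5 difference was larger than as deposited, at -0.74 (limma adjusted p = 0.00063). smad1 read 14.9, 18.1 and 26.6 FPKM in clec16a MO cells and 57.8, 58.1 and 55.3 FPKM in control MO cells, a fall to 34.8% of the control MO mean (log2 difference -1.52, SE 0.19, limma adjusted p = 0.00023). smad9 read 0.448, 2.79 and 1.6 FPKM in clec16a MO cells and 5.84, 5.62 and 6.02 FPKM in control MO cells, a fall to 27.7% of the control MO mean (log2 difference -1.49, SE 0.33, limma adjusted p = 0.0039). The smad9 call was lost at -0.80 under median centring (limma adjusted p = 0.060) and at -0.66 under quantile normalization (limma adjusted p = 0.067).

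In these libraries smad5 held a larger share of the receptor-regulated Smad pool in clec16a MO cells, and smad1 and smad9 smaller ones. smad5 took 86.6%, 85.7% and 78.4% of the summed FPKM of smad1, smad5 and smad9 in clec16a MO cells, against 70.0%, 70.5% and 72.5% in control MO cells. smad1 took 13.0%, 12.3% and 20.4% in clec16a MO cells and 27.3%, 26.9% and 24.8% in control MO cells. The share of smad9 was 1.18% ± 0.759 in clec16a MO and 2.68% ± 0.0784 in control MO (SD, n = 3 each). For each of the 3 shares the groups did not overlap (exact permutation p = 0.1, two-sided, the smallest possible with 3 against 3, and 0.1 adjusted over the 3 shares). The groups did not overlap for 83.7% of single tested genes either, and other shares were not examined. The difference was 12.6 percentage points for smad5 and -11.1 for smad1. As within-library ratios, smad1 over smad5 was 0.150, 0.144 and 0.260 in clec16a MO cells and 0.389, 0.381 and 0.343 in control MO cells, and smad9 over smad5 was 0.00452, 0.0222 and 0.0157 in clec16a MO cells and 0.0393, 0.0368 and 0.0373 in control MO cells.

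smad6b, which encodes an inhibitory Smad that blocks receptor-regulated Smads and is itself induced by BMP, fell to nearly the same level in each clec16a MO library. It read 1.66, 1.6 and 1.59 FPKM in clec16a MO cells and 14.4, 13.6 and 15.5 FPKM in control MO cells. The clec16a MO libraries had an SD of 0.0359 FPKM, and their mean was 11.2% of the control MO mean (log2 difference -2.56, SE 0.11, limma adjusted p = 1.1e-06). Relative to summed smad1, smad5 and smad9 in the same library it stood at 0.0145, 0.0109 and 0.0122 in clec16a MO cells, against 0.0680, 0.0627 and 0.0695 in control MO cells. The groups did not overlap, and the difference of this ratio was -1.83 on the log2(FPKM + 1) scale (exact permutation p = 0.1, two-sided, the smallest possible; 0.117 adjusted over 7 ratios).

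**Figure D2:**
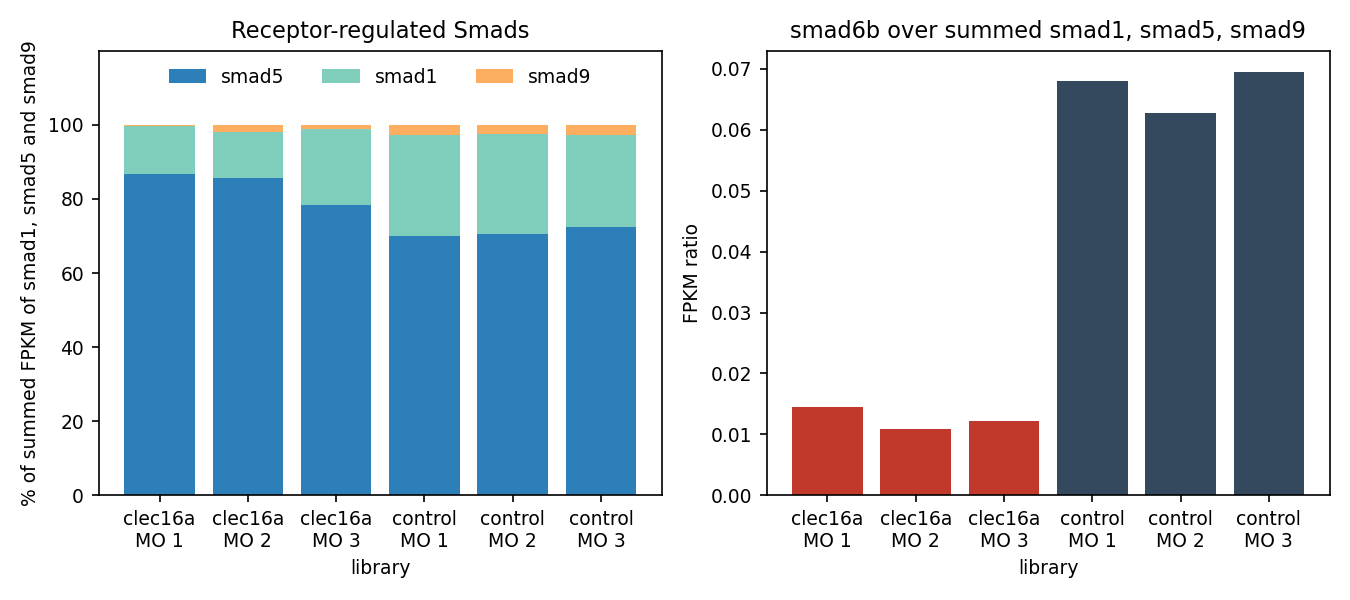
Left, share (%) of smad5, smad1 and smad9 in their summed FPKM in each library; right, FPKM of smad6b divided by that sum, in each library. The smad5 share is 78.4% to 86.6% in clec16a MO cells and 70.0% to 72.5% in control MO cells, and the smad6b ratio is at most 0.0145 and at least 0.0627 in the same order of groups.

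id1, which encodes a helix-loop-helix protein without a DNA-binding region and is a direct target of Smad1 and Smad5, was the most abundant gene of the set in every library. It read 508, 402 and 452 FPKM in clec16a MO cells and 1281, 1291 and 1216 FPKM in control MO cells. By mean level it ranked 185 of 21837 rows in the clec16a MO group and 26 in the control MO group. The fall to 35.9% of the control MO mean (log2 difference -1.48, SE 0.10, limma adjusted p = 8.7e-06) was past the threshold under each of 16 alternative settings, with log2 differences from -1.84 with quantile normalization to -0.79 with median centring. id1 was 4.43, 2.74 and 3.47 times the summed receptor-regulated Smads in clec16a MO cells and 6.04, 5.97 and 5.46 times in control MO cells, a difference of -0.74 on the log2(FPKM + 1) scale (exact permutation p = 0.1, two-sided, the smallest possible). Within the clec16a MO group id1 was highest in replicate 1, where acvrl1, bmpr1aa, bmpr1ab, smad1, smad5 and smad9 were lowest.

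Of the 4 other Id genes in the target list, 3 were lower as deposited and id2b did not pass. id3 read 21.6, 18.9 and 21.4 FPKM in clec16a MO cells and 44.8, 39.5 and 40.8 FPKM in control MO cells (log2 difference -0.98, limma adjusted p = 7e-05). id2a averaged 12.5 ± 3.30 FPKM in clec16a MO and 24.1 ± 0.364 FPKM in control MO (SD, n = 3 each; log2 difference -0.93), and id4 9.75 ± 2.27 and 13.6 ± 0.942 FPKM in the same order (log2 difference -0.47, limma adjusted p = 0.035). The id2a call was lost under median centring (-0.23, limma adjusted p = 0.31). That of id4 was lost in 5 of 6 fits that each left out 1 library (all but that without clec16a MO replicate 3; limma adjusted p = 0.057 to 0.11), at -0.04 under quantile normalization (limma adjusted p = 0.83), and its direction turned at 0.23 under median centring. id2b read 2.36, 6.32 and 3.23 FPKM in clec16a MO cells and 2.88, 3.97 and 4.23 FPKM in control MO cells and did not pass (limma adjusted p = 0.96), but was higher with quantile normalization (0.82, limma adjusted p = 0.023). These 4 genes were named after their values were seen.

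The 5 genes whose profile was most like that of id1 were atp5mc3a, serpinh2, ube2nb, rnf170 and srsf3b. Likeness was the root mean square distance of log2(FPKM + 1) over the 6 libraries after each gene was centred on its own mean, and it was 0.021 for atp5mc3a and 0.053 or less for all 5. atp5mc3a, an ATP synthase subunit gene, read 40.2, 30.4 and 35.4 FPKM in clec16a MO cells and 102, 100 and 97.3 FPKM in control MO cells. serpinh2 averaged 0.902 FPKM in clec16a MO cells, so it passed the filter through control MO cells alone and had to be lower. Its likeness depends on the pseudocount, since its clec16a MO mean was 20.3% of the control MO mean, against 35.9% for id1. No other gene of the BMP set was among the 5, which says little, since so few places were open to so many genes. A log2 difference below that of id1 was found in 29.6% of tested genes.

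Among the 10 BMP genes the size of the differences and some calls depended on how libraries were scaled. The direction turned for smad5 alone, and with median centring only. Centring every library on its own median shifted the median difference of all tested genes by 0.69, from -0.66 as deposited to 0.03, and quantile normalization shifted it by 0.62. Of the 10 BMP genes 6 were then called lower with median centring and 7 with quantile normalization, beside 38.1% and 39.8% of tested genes. Both counts include bmpr2a and bmpr2b, which passed the filter through control MO cells alone. None was called higher (0 of 10 under either, beside 39.7% and 38.0% of tested genes). Apart from bmpr2a and bmpr2b, those called lower under both were smad1, smad6b, acvrl1 and id1. smad5 was called lower with quantile normalization but not with median centring. With median centring the values were -1.34 for bmpr2a, -1.88 for bmpr2b and -1.87 for smad6b, against -0.82 for smad1, -0.78 for acvrl1 and -0.79 for id1. With quantile normalization bmpr2a was at -1.06 and id1 at -1.84. Of all tested genes 32.8% of calls were higher and 67.2% lower as deposited, against 51.0% and 49.0% after median centring and 48.8% and 51.2% after quantile normalization.

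**Figure D3:**
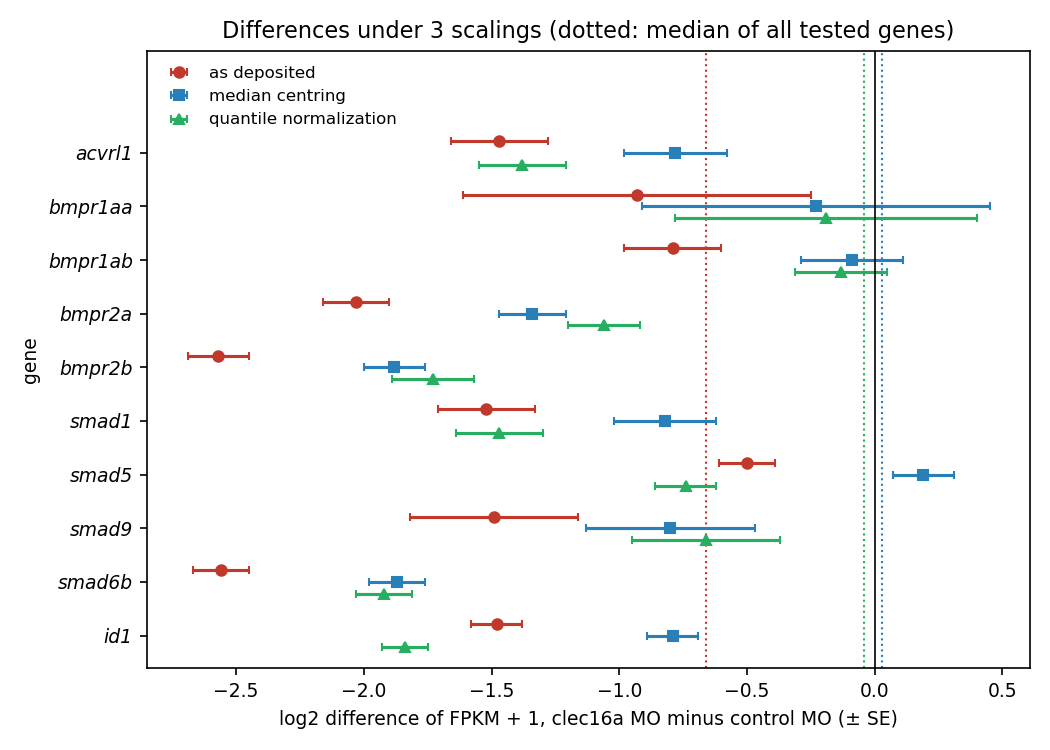
Log2 difference of FPKM + 1, clec16a MO minus control MO, with its SE, for each of the 10 BMP genes as deposited, with median centring and with quantile normalization; dotted lines are the median of all tested genes under each scaling. bmpr2b and smad6b stay lowest with median centring, while smad5 turns from -0.50 to 0.19. With quantile normalization smad5 is at -0.74.

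Each of the 10 differences was also placed among those of all tested genes. bmpr2b and smad6b, the lowest, had 9.6% and 9.7% of tested genes below them, and bmpr2a 17.3%. smad1, smad9, id1 and acvrl1 lay close together, with 28.9%, 29.4%, 29.6% and 29.8% of tested genes below them. bmpr1aa, bmpr1ab and smad5 followed at 43.3%, 46.8% and 53.7%.

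**Figure D4:**
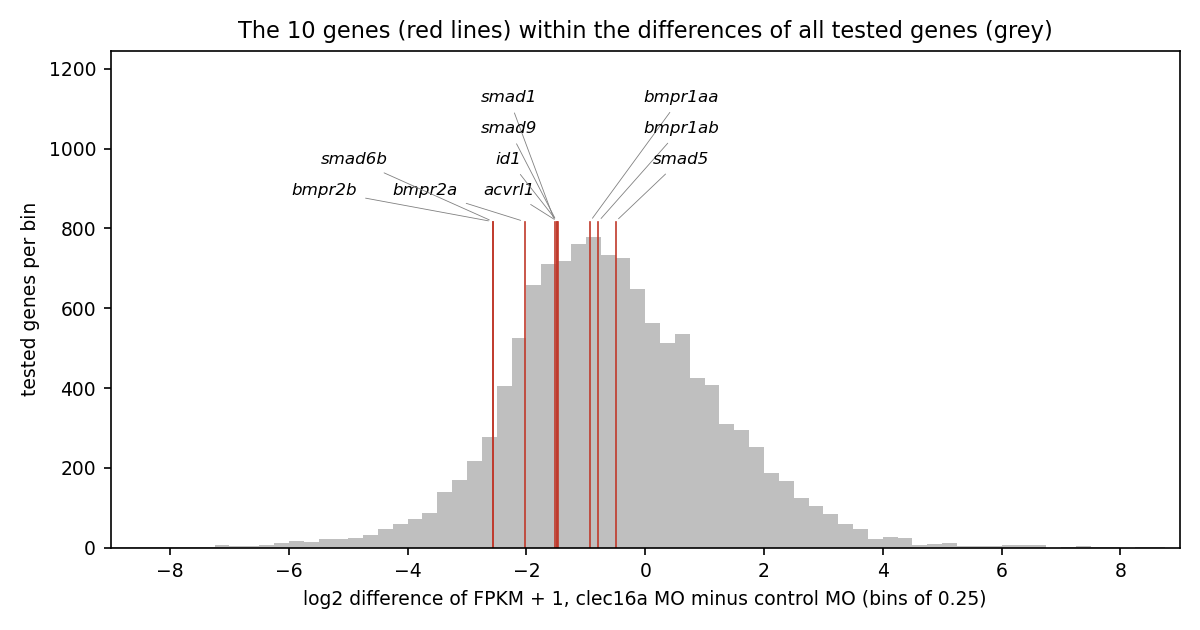
Number of tested genes per bin of log2 difference, clec16a MO minus control MO (grey bars), with the 10 BMP genes as red lines. The BMP genes lie between -2.57 for bmpr2b and -0.50 for smad5, all within the body of the distribution and below 0.

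The order of the levels was alike at the top and differed lower down. In the clec16a MO libraries the means ran from id1 (454 FPKM) through smad5 (109), smad1 (19.9), acvrl1 (17.3), bmpr1ab (4.57), bmpr1aa (4.29), smad6b (1.62), smad9 (1.61) and bmpr2a (0.337) to bmpr2b. Of the neighbours in that order, the libraries of smad1 and acvrl1, bmpr1ab and bmpr1aa, bmpr1aa and smad6b, smad6b and smad9, and smad9 and bmpr2a overlapped, and the others were apart. In the control MO libraries the order was id1 (1263 FPKM), smad5 (154), smad1 (57.1), acvrl1 (48.5), smad6b (14.5), bmpr1ab (8.41), bmpr1aa (6.66), smad9 (5.83), bmpr2b (5.10) and bmpr2a (4.44), with overlap between bmpr1aa and smad9 and between bmpr2b and bmpr2a.

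Spread between replicates was wider in the clec16a MO group for most of the 10 genes, as it was for the table as a whole. On the log2(FPKM + 1) scale the SD of bmpr1aa was 1.51 in clec16a MO and 0.19 in control MO, that of smad9 0.70 and 0.04, that of smad1 0.40 and 0.04, and that of acvrl1 0.39 and 0.04. The median over all tested genes was 0.25 in clec16a MO and 0.08 in control MO. smad6b and bmpr2b were the exceptions, with 0.02 and 0.03 in clec16a MO against 0.09 and 0.13 in control MO. For bmpr2b this does not show tight replicates, since the pseudocount of 1 flattens values near 0. Its clec16a MO libraries had a mean of 0.0239 FPKM and an SD of 0.0236 FPKM. Of the 10 genes 6 had their lowest clec16a MO value in replicate 1, 2 in replicate 2 and 2 in replicate 3, beside 34.4%, 37.2% and 28.4% of tested genes. Without clec16a MO replicate 1, 9 of the 10 genes were still called lower.

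The rest of the pathway was described by 7 lists of other BMP and TGF-beta genes, together 89 genes, of which 75 had a row and 50 passed the filter. Of these 50, 3 were higher, 43 lower and 4 did not pass, with a median log2 difference of -1.84 beside -0.66 over all tested genes, of which 54.6% were lower and 26.7% higher. With median centring and with quantile normalization 35 were lower and 4 higher, beside 38.1% and 39.8% of tested genes lower and 39.7% and 38.0% higher. The counts of single lists that follow stand beside the same 54.6% lower and 26.7% higher, and most rest on few genes. A gene that passed the filter through its control MO level alone had to be lower. Such genes are named list by list below and make up most of the lower ones. Among the higher ones bmper passed through its clec16a MO level alone and had to be higher. The counts and the medians, also those of all 50 genes, thus describe the tested genes and not the lists.

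Of 6 tested BMP ligand genes, 1 was higher and 5 lower. Of the lower ones, bmp4 and bmp2b passed the filter through control MO cells alone and had to be lower. gdf6a, a ligand of dorsal retina and ectoderm, averaged 14.2 ± 3.15 FPKM in clec16a MO and 90.7 ± 2.68 FPKM in control MO (SD, n = 3 each; log2 difference -2.61). bmp4 read 0, 0.473 and 0.535 FPKM in clec16a MO cells and 4.25, 3.80 and 4.18 FPKM in control MO cells, and bmp6 1.26, 0.906 and 2.23 FPKM in clec16a MO cells and 9.51, 9.20 and 9.44 FPKM in control MO cells. bmp2b, the main ventralizing ligand of the early zebrafish embryo, averaged 0.346 ± 0.325 FPKM in clec16a MO and 2.71 ± 0.488 FPKM in control MO (log2 difference -1.48, limma adjusted p = 0.00027); its call was lost at -0.44 under quantile normalization (limma adjusted p = 0.066). The ligand gene that was higher was bmp3 (log2 difference 0.36, limma adjusted p = 0.044), named after its values were seen; the call was lost in 5 of 6 fits that each left out 1 library (all but that without clec16a MO replicate 3; limma adjusted p = 0.075 to 0.16).

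Of 5 tested other receptors and co-receptors, 1 was higher and 4 lower. Of the lower ones, acvr2ba and hjv passed the filter through control MO cells alone and had to be lower. The activin type II receptor gene acvr2aa read 9.51, 13.7 and 10.9 FPKM in clec16a MO cells and 5.87, 5.58 and 6.08 FPKM in control MO cells, the one type II receptor gene tested here that rose (log2 difference 0.84, SE 0.15, limma adjusted p = 0.0013). Its relative acvr2ba read 0.0117, 0 and 0 FPKM in clec16a MO cells and 6.78, 7.41 and 6.94 FPKM in control MO cells. acvr1l, the type I receptor of zebrafish dorsoventral patterning, averaged 6.97 ± 2.88 FPKM in clec16a MO and 23.1 ± 1.31 FPKM in control MO (SD, n = 3 each; log2 difference -1.66). The BMP co-receptor gene hjv averaged 0.139 ± 0.0933 and 5.35 ± 0.422 FPKM in the same order (log2 difference -2.48).

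All 3 tested other Smads of the BMP arm were lower. Among them smad7 and smad4b passed the filter through control MO cells alone, so they had to be lower. smad7, an inhibitory Smad of both the BMP and TGF-beta arms, averaged 0.106 ± 0.0106 FPKM in clec16a MO and 11.1 ± 0.128 FPKM in control MO (SD, n = 3 each; log2 difference -3.46, SE 0.11, limma adjusted p = 3.1e-07). smad6a, the paralog of smad6b, read 2.03, 2.19 and 4.46 FPKM in clec16a MO cells and 8.39, 8.57 and 9.43 FPKM in control MO cells (log2 difference -1.38). smad4b, a common-mediator Smad gene, read 0, 0.0594 and 0 FPKM in clec16a MO cells and 4.36, 6.69 and 5.58 FPKM in control MO cells.

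**Figure D5:**
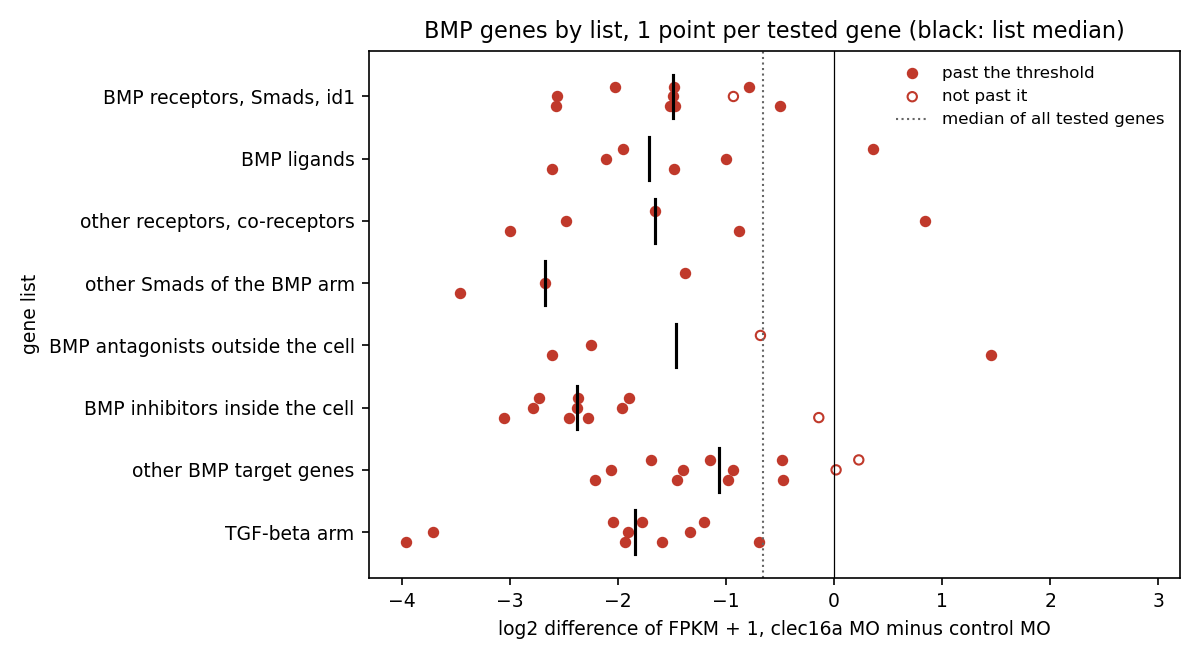
Log2 difference of FPKM + 1, clec16a MO minus control MO, for the 10 BMP genes and the tested genes of 7 pathway lists, 1 point per gene, filled where past the threshold; black bars are list medians and the dotted line is the median of all tested genes at -0.66. The lists' medians run from -2.67 for the other Smads to -1.07 for the other target genes, and 3 points past the threshold lie above 0.

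Inhibitors of the pathway act on both sides of the membrane. Of 4 tested antagonists outside the cell or at its surface, 1 was higher and 2 lower. The gene that was higher passed the filter through its clec16a MO level alone, so it had to be. bmper, which encodes a secreted BMP-binding protein of vessels, read 3.17, 3.03 and 3.52 FPKM in clec16a MO cells and 0.571, 0.826 and 0.287 FPKM in control MO cells, and rose (log2 difference 1.45, SE 0.15, limma adjusted p = 8.3e-05). sost, counted here as a secreted antagonist though its action on BMP was not examined, averaged 13.9 ± 2.52 FPKM in clec16a MO and 89.0 ± 1.73 FPKM in control MO. The pseudoreceptor gene bambia averaged 4.45 ± 1.41 and 24.3 ± 1.40 FPKM in the same order (SD, n = 3 each). Their log2 differences were -2.61 and -2.25. bambib read 3.71, 13.7 and 5.14 FPKM in clec16a MO cells and 12, 11.4 and 9.75 FPKM in control MO cells and did not pass (log2 difference -0.68, limma adjusted p = 0.15); without clec16a MO replicate 2 it was -1.16 (limma adjusted p = 0.00075), and with median centring 0.02.

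Of 10 tested inhibitors inside the cell, 9 were lower and 1 did not pass. Among the lower ones smurf1, smurf2, ppm1aa, ppm1ba, skia, skila and skilb passed the filter through control MO cells alone and had to be lower. The ubiquitin ligase genes smurf1 and smurf2, whose products mark BMP Smads and receptors for degradation, averaged 0.764 ± 0.0452 and 0.610 ± 0.202 FPKM in clec16a MO and 8.21 ± 0.173 and 9.63 ± 0.339 FPKM in control MO (SD, n = 3 each; log2 differences -2.38 and -2.73). The phosphatase gene ppm1aa, whose human ortholog acts on Smads, averaged 0.225 ± 0.144 FPKM in clec16a MO and 9.11 ± 0.518 FPKM in control MO. skila, for a Smad co-repressor, averaged 0.374 ± 0.164 and 8.42 ± 0.144 FPKM in the same order.

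Of 12 tested other target genes, 0 were higher, 10 lower and 2 did not pass. Among the lower ones msx1a, tp63, vox and dlx3b passed the filter through control MO cells alone and had to be lower. The homeobox gene msx1a read 0, 0.299 and 0.0832 FPKM in clec16a MO cells and 3.26, 4.81 and 4.62 FPKM in control MO cells. tp63, a regulator of epidermis, averaged 0.303 ± 0.2 FPKM in clec16a MO and 4.42 ± 0.490 FPKM in control MO, the ventral homeobox gene vox 0.576 ± 0.192 and 4.06 ± 0.386 FPKM, and dlx3b, a homeobox gene of the neural plate border, 0.358 ± 0.0773 and 2.71 ± 0.321 FPKM in the same order (SD, n = 3 each; log2 differences -2.06, -1.69 and -1.45). tp63 is also a gene of the epidermis, whose markers were lower by the amounts given above.

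In the TGF-beta arm, which uses other receptors and Smad2 and Smad3, all 10 tested genes were lower, with a median log2 difference of -1.84. Among them tgfb3, tgfbr1a, tgfbr1b, tgfbr2a, smad2 and smad3b passed the filter through control MO cells alone and had to be lower. tgfbr1b, a type I receptor gene, was listed at 0 in all 3 clec16a MO libraries and read 14.5, 14.5 and 14.6 FPKM in control MO cells. The type II receptor gene tgfbr2b averaged 10.5 ± 1.31 FPKM in clec16a MO and 149 ± 5.81 FPKM in control MO (SD, n = 3 each; log2 difference -3.71). smad2 averaged 0.930 ± 0.103 and 6.93 ± 0.190 FPKM in the same order, and the ligand gene tgfb3 read 0, 0.261 and 0.0520 FPKM in clec16a MO cells and 3.42, 3.02 and 2.95 FPKM in control MO cells. Beside them 9 of the 10 BMP genes were lower as deposited, and whether the arms differ was not tested.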

How the data were processed

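The values are FPKM, deposited by the authors as a single table with a column for each of 3 libraries per group. The submitters' processing notes name Cutadapt 1.9, HISAT2 2.2.1 and StringTie 2.1.6, without settings. Build and annotation: not given in the sources used here; coordinates and sequences are therefore left out. Per the labels' protocols, cDNA was primed with oligo(dT), made by template switching and amplified by PCR. Of 21853 rows, 16 with a calendar date as name were left out. Low values gave no usable step of whole reads (22 to 25 genes shared the commonest ratio within 0.08% in pairs of clec16a MO libraries and 39 to 58 in pairs of control MO libraries), so depth is unknown. A 0 may mean that estimation failed: the nuclear pore gene nup54, chosen for its values, is listed at 0 in all 3 clec16a MO libraries.

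Tests used limma 3.58.1 (R 4.3.3) with a mean-variance trend on log2(FPKM + 1), two-sided, group only. The log2 scale with a pseudocount of 1 understates changes of low genes. Ratios and shares were tested with SciPy 1.17.1. The code was tested on simulated data. Figures were drawn with matplotlib 3.10.9 in Python 3.11.15. The labels name no batch; one that ran with the morpholino cannot be told apart from it. The 10 genes and the lists were chosen with earlier results of these data known. Named were the 10 genes, up to 4 genes of each pathway list with the smallest adjusted p, and the 5 genes nearest to id1. Alternatives were pseudocounts of 0.1 and 0.5, no filter, median centring, quantile normalization, leaving out globin, mitochondrial and ribosomal protein genes, array weights, no trend, rows of one name summed, a replicate block, and each library left out. Summed marker levels of neural (48.3 to 59.99 FPKM in clec16a MO, 140.5 to 151.2 in control MO) and neural crest and pharyngeal arch lists (13.2 to 18.7 and 22.5 to 24.7) complete those in the report. Of 5 tested markers of the latter list 1 was higher (hand2) and 3 lower, beside 26.7% and 54.6% of tested genes. The lower ones (foxd3, dlx5a and twist1a) passed the filter through control MO cells alone and had to be lower.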

Additional observations from a re-analysis of the deposited data

How the results depend on the processing

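Of the 10 BMP genes, 9 were called lower under each of 14 of the 16 alternatives. Median centring left 6 and quantile normalization 7. Each of these counts includes bmpr2a and bmpr2b, which passed the filter through control MO cells alone. smad5 turned to 0.19 with median centring, as did id4 to 0.23, atoh8 to 0.21 and bambib to 0.02. With quantile normalization smad5 was at -0.74. id2b ran from -0.3 to 0.26 as each library was left out, against 0.02. bmpr1aa was not called under any. With no filter, 10430 of all genes were called lower, against 6638 with it. On the log2(FPKM + pseudocount) scale, ratio differences grew with smaller pseudocounts of 0.1 and 0.5. That of bmpr2a over bmpr2b went to 1.96 and 0.84, against 0.54. That of smad6b over summed smad1, smad5 and smad9 went to -2.35 and -2.08, against -1.83. That of summed bmpr2a and bmpr2b over summed acvrl1, bmpr1aa and bmpr1ab went to -3.09 and -2.23, against -1.65. For smad9 over smad5 it was -1.58 with 0.1, against -0.99. Leaving out each library in turn, the bmpr1aa over bmpr1ab difference ran from -0.53 without clec16a MO replicate 2 to 0.52 without clec16a MO replicate 1, against -0.14. Other ratio and share results kept their direction. No pairing of libraries by the replicate numbers in their titles was seen (correlations of deviations 0.0437, -0.0178 and 0.00542 for numbers 1 to 3). These values cannot show that libraries of the same number were unrelated. With the number as a replicate block 9 BMP genes and 9843 of all genes were called. No call among the 10 changed, while bmp3 (limma adjusted p = 0.099) and id4 (limma adjusted p = 0.051) were no longer called. Depth is unknown, so no detection limit can be given for values near 0.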

Other observations

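Of the pathway genes not described above, some were listed at 0 throughout one group. The activin type II receptor gene acvr2bb was listed at 0 in all 3 clec16a MO libraries, and read 1.97, 1.54 and 2.14 FPKM in control MO cells. The ventral homeobox gene ved was likewise listed at 0 in all 3 clec16a MO libraries, and read 2.27, 1.48 and 1.99 FPKM in control MO cells. smad4a, the other common-mediator Smad gene, read 0.228, 0.0537 and 0.247 FPKM in clec16a MO cells and 1.42, 2.08 and 1.91 FPKM in control MO cells. The noggin genes nog1, nog2 and nog3, for secreted BMP antagonists, averaged below 1 FPKM in both groups. atoh8, a target gene of BMP signalling in endothelium in mammals, read 72.5, 91.5 and 85.3 FPKM in clec16a MO cells and 114, 111 and 122 FPKM in control MO cells (log2 difference -0.48, limma adjusted p = 0.0044; 0.21 with median centring, limma adjusted p = 0.13). These genes were picked for this paragraph after their values were seen.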
